A study of Rattus norvegicus with 12 samples.

Results

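The small RNA rno_piR_000685 was the most abundant piRNA in libraries of rat liver sampled around partial hepatectomy, an operation that takes out part of the organ. Its row was taken by name from each of the 12 deposited piRNA tables, as 1 of 701 piRNA names listed over all libraries and 1 of 61 listed in every library. In all, 795058 of the 2099301 listed piRNA reads, or 37.9%, carried this name. It was chosen by its read count in these same libraries, which was the highest of all names, so its level and its rank are given as descriptions with no test. Tests are given for differences between groups. The selection did not rank names by these differences, but they were known when it was made. It rested on reads of all libraries, 6 of the 12 from sham-operated liver, and can favour a name that is high there. The tests are thus not independent of it.

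All libraries came from the liver of Fischer-344 (F-344) rats, an inbred strain. Normal, sham-operated liver, named pre_PH in the labels, had 6 libraries, and regenerating liver had 2 libraries each at 24, 48 and 168 hours after partial hepatectomy (24h, 48h and 168h). Whether libraries of 1 group stem from different animals is not in the labels, and p-values therefore reflect the spread among libraries, possibly a technical one. No preparation batch is labelled either, and the effects of a time and of a batch common to its 2 libraries cannot be told apart. The tables held only piRNA names, so markers of liver or of other cell types could not be read from them. Library totals were 20741811 to 31467460 reads, of which 120844 to 351818 were listed piRNA reads.

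PIWI-interacting RNAs (piRNAs) bind PIWI proteins and direct them to matching RNAs. In the germ line, where they are most studied, they silence transposable elements. A piRNA name in such a table records a match to a catalogued sequence, and reads of other small RNAs with that sequence would carry the same name. After partial hepatectomy the remaining hepatocytes leave rest, replicate their DNA and divide, and the liver regrows over the following days. The sequence and the genome position of rno_piR_000685 were not used here.

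In sham-operated liver, rno_piR_000685 took a large and similar part of the piRNA reads in every library. Its share of listed piRNA reads in the 6 pre_PH libraries was 39.3% at the lowest, 42.3% at the median and 54.8% at the highest, with a mean of 44.0% ± 5.79 (SD, n = 6). At 24h its shares were 36.7% and 33.1%. At 48h they were 23.3% and 24.9%. At 168h they were 43.8% in replicate 1 and 17.7% in replicate 2. Both 24h and both 48h libraries and replicate 2 at 168h lay below all 6 pre_PH libraries, and replicate 1 at 168h lay within their range. Counting error was small beside these gaps: the 95% Wilson interval was 17.5 to 17.9% for the lowest library and 54.6 to 55.1% for the highest.

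Relative to all reads of the library, rno_piR_000685 was also low after hepatectomy, with more overlap between groups. In pre_PH it had 1877 reads per 1000000 library reads (RPM) at the lowest, 2477 RPM at the median and 5736 RPM at the highest. Its levels were 1540 and 2656 RPM at 24h, 1355 and 1992 RPM at 48h, and 1784 and 947 RPM at 168h. The 168h libraries were both below the pre_PH range, whereas replicate 2 at 24h and replicate 2 at 48h lay inside it. The order of the mean levels was pre_PH (3224 RPM ± 1600, SD, n = 6), 24h (2098 ± 789, n = 2), 48h (1674 ± 450, n = 2) and 168h (1365 ± 592, n = 2), and in that order the libraries of each group overlapped those of the next. In bulk liver RNA, fewer cells with an RNA and less of it per cell cannot be told apart.

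**Figure D1:**
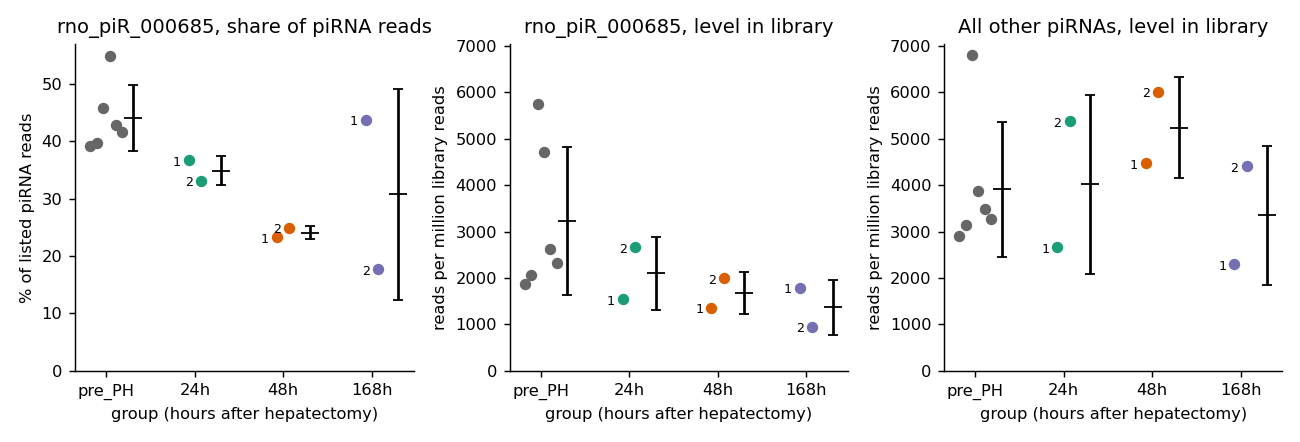
Share of listed piRNA reads of rno_piR_000685 (left, %), its level in the library (middle, RPM) and the level of all other piRNAs together (right, same unit), by group. Points are libraries, numbered by replicate where a group has 2, and bars are the mean ± SD. Both 48h libraries sit at 23.3% and 24.9% on the left, below every pre_PH library, while on the right they sit at 4471 and 6006 RPM, inside the pre_PH range.

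The other piRNAs, summed, did not show the low level that rno_piR_000685 showed at 48h. They had 4471 and 6006 RPM at 48h, against 2904 to 6792 RPM in pre_PH with a median of 3379 RPM. Their geometric mean at 48h was 1.39 times that in pre_PH, while that of rno_piR_000685 was 0.560 of it. For each read of another piRNA there were 0.303 and 0.332 reads of rno_piR_000685 at 48h, against 0.647 to 1.21 in pre_PH. At 168h replicate 2 had 0.215 reads of rno_piR_000685 per other piRNA read and replicate 1 had 0.778, which lies inside the pre_PH range.

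Tests on single values per library did not pass after correction at any time. The log2 share of piRNA reads differed by -0.86 at 48h (24.1% ± 1.16, n = 2, against 44.0% ± 5.79, n = 6), with an exact two-sided permutation p of 0.0357, the smallest that 28 splits of 2 against 6 allow, and an adjusted p of 0.0714 over the 4 comparisons of that measure. Even at that smallest p, a single time could not pass after adjustment unless other comparisons were also low. Not passing is thus no evidence of no difference. For 24h the exact permutation p was 0.0714 (adjusted p = 0.0952), and for 168h it was 0.179 (adjusted p = 0.179). The 6 libraries after hepatectomy pooled, 5 of them below the pre_PH range, had a share of 29.9% ± 9.66 against 44.0% ± 5.79 (exact permutation p = 0.0130, adjusted p = 0.0519). That pooled comparison passed without 24h replicate 1 (log2 difference -0.69, exact permutation adjusted p = 0.0433) and without 168h replicate 1 (-0.74, exact permutation adjusted p = 0.00866).

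On the library scale, no difference passed after correction either. The log2 RPM of rno_piR_000685 differed by -0.54 for 24h, -0.84 for 48h and -1.18 for 168h from that of pre_PH (exact permutation adjusted p = 0.357, 0.143 and 0.143). With 1 library left out these ran from -0.93 (without 24h replicate 2) to -0.15 (without 24h replicate 1) at 24h, from -1.12 (without 48h replicate 2) to -0.56 (without 48h replicate 1) at 48h, and from -1.63 (without 168h replicate 1) to -0.72 (without 168h replicate 2) at 168h. Pooled, the 6 libraries after hepatectomy had 1712 RPM ± 586 against 3224 ± 1600 in the 6 of pre_PH, and 4 of the 6 were lower than every pre_PH library (exact permutation p = 0.0303, adjusted p = 0.121). Without 24h replicate 2 the pooled log2 difference was -0.99 and passed (exact permutation adjusted p = 0.0433). The summed level of the other piRNAs passed at no time (exact permutation adjusted p of 0.714 at 48h and 1 at 24h, at 168h and pooled).

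A comparison free of any library total sets rno_piR_000685 against the geometric mean of the 60 other piRNAs listed in all 12 libraries. It exceeded that mean 256 and 275 times at 48h and 410 and 247 times at 168h, against 464 to 1418 times in pre_PH. All 4 of these libraries lay below the 6 pre_PH libraries. At 24h the ratios were 546 and 756, both within the pre_PH range. The log2 differences from pre_PH were -1.47 at 48h and -1.21 at 168h, each with an exact permutation p of 0.0714 (adjusted p = 0.0952), and -0.20 at 24h (exact permutation adjusted p = 0.821). At 24h the direction was opposite, 0.44, when the median of the 60 replaced their geometric mean. Rare names weigh as much as abundant ones in that geometric mean, and a higher reference also lowers the ratio. On the library scale rno_piR_000685 itself differed by -0.84 at 48h, a smaller difference than the -1.47 of the ratio.

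Which piRNA stood next to rno_piR_000685 varied between libraries, and so did its lead. It ranked first in 11 of 12 libraries and second in 168h replicate 2. In pre_PH the runner-up was rno_piR_004288 in replicates 1, 2, 5 and 6 and rno_piR_005556 in replicates 3 and 4, and rno_piR_000685 had 1.48 to 3.88 reads for each read of it. At 24h the runner-up was rno_piR_005556 in both libraries, at ratios of 1.87 and 1.25. At 48h replicate 1 it was rno_piR_005901, with 25435 reads against 28115 of rno_piR_000685, a ratio of 1.11. At 48h replicate 2 it was rno_piR_005567, at a ratio of 1.46. In 168h replicate 2 rno_piR_005567 led with 61011 reads against 26005 of rno_piR_000685, a ratio of 0.426, whereas in 168h replicate 1 rno_piR_004288 was next at a ratio of 2.87.

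Against single abundant piRNAs the ratio differed in direction. The geometric mean of the reads of rno_piR_000685 per read of rno_piR_005567 was 20.04 (pre_PH), 9.84 (24h), 1.78 (48h) and 2.22 (168h). Per read of rno_piR_005556 it was 7.19 (pre_PH), 1.53 (24h), 1.87 (48h) and 9.49 (168h). Per read of rno_piR_004288 it ran the other way at 48h, with 3.98 (pre_PH), 4.82 (24h), 6.86 (48h) and 2.62 (168h). These 3 ratios share the same numerator, so the differences among them lie in the other piRNAs. The 6 further piRNAs among the 10 most abundant, rno_piR_005901, rno_piR_005900, rno_piR_005787, rno_piR_008639, rno_piR_000030 and rno_piR_005359, had geometric mean ratios of 1.94 to 20.4 at 48h and 8.84 to 34.2 in pre_PH, each lower at 48h than in pre_PH.

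**Figure D2:**
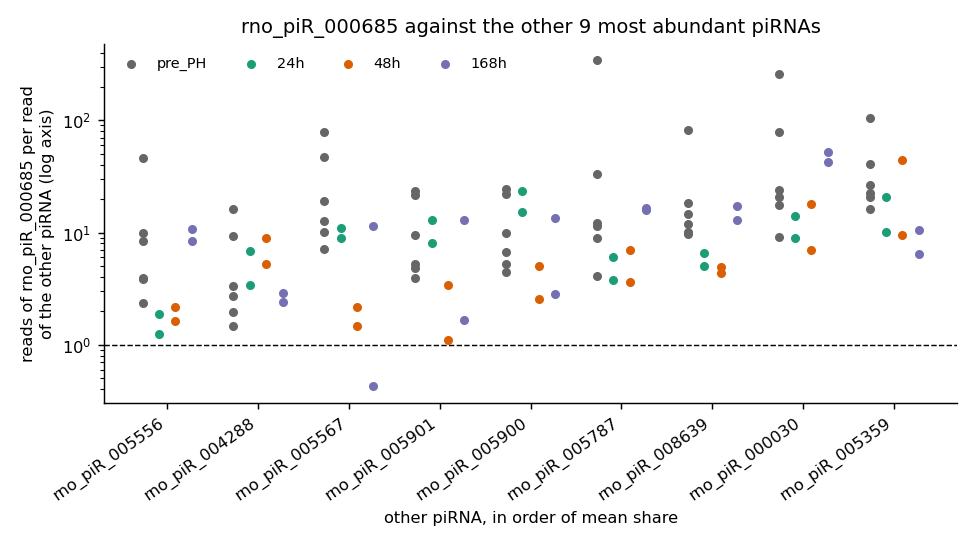
Reads of rno_piR_000685 per read of each of the other 9 most abundant piRNAs (log axis), 1 point per library, coloured by group. The dashed line marks equal reads; the single point under it is 168h replicate 2 against rno_piR_005567, at 0.426.

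In the count test over all piRNAs, rno_piR_000685 was called in no comparison. Normalised counts (CPM) are reads per 1000000 of the library's piRNA total after scaling with the trimmed mean of M-values (TMM), a scaling to the typical piRNA, so the values of a library need not sum to its reads. Its normalised level was 154458 and 173935 CPM at 48h, against 279541 to 954338 CPM in pre_PH. The groups did not overlap, and the log2 fold change was -1.69 ± 0.85 (SE, 95% interval -3.45 to 0.08, edgeR adjusted p = 0.112). In that comparison 46.2% of the 80 piRNAs tested were called, and 9 of the 80 had a lower log2 fold change than rno_piR_000685. It passed with DESeq2 (log2 fold change -1.45, adjusted p = 0.0189). Without 24h replicate 2 the log2 fold change was -2.77, and without 168h replicate 1 it was -2.98. Both libraries are in neither group compared. Those fits tested 101 and 108 piRNAs in place of 80, and TMM was computed over that set. What the larger values stem from was not tested.

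The other comparisons gave wider overlap. At 24h its level was 369796 and 430463 CPM, inside the pre_PH range, and the log2 fold change was -0.40 ± 0.78 (SE; edgeR adjusted p = 0.919). There 2.5% of piRNAs were called. The direction at 24h turned to 0.37 without pre_PH replicate 3 and to 0.17 without 168h replicate 2. At 168h the libraries stood at 520010 and 136021 CPM, and their log2 fold change was -0.69 ± 0.80 (SE; edgeR adjusted p = 0.674), with 6.25% of piRNAs called. That fold change ran from -2.01 without 168h replicate 1 to -0.43 without 168h replicate 2, and was -1.76 with TMM without the 10 most abundant piRNAs. With all 6 libraries after hepatectomy pooled it was -0.81 ± 0.45 (SE, 95% interval -1.76 to 0.14, edgeR adjusted p = 0.396), with 11.5% of 52 piRNAs called. It was -1.57 without 24h replicate 2 (edgeR adjusted p = 0.069) and -0.25 over the libraries numbered 1 and 2.

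Between times, the log2 fold change was -1.29 ± 0.95 for 48h against 24h (SE, edgeR adjusted p = 0.304), where 17.5% of piRNAs were called. Over all settings it ran from -2.44 without 168h replicate 1 to -0.33 with the authors' library total. For 168h against 48h it was 1.00 ± 0.95 (SE, 95% interval -0.96 to 2.96, edgeR adjusted p = 0.448), where 37.5% were called, and its sign turned with upper-quartile scaling, with TMM without the 10 most abundant piRNAs, with the authors' library total and without pre_PH replicate 4.

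The size of these fold changes moved with the scaling, together with the median of all piRNAs tested. Over 7 scalings the log2 fold change at 48h against pre_PH was -2.24 to -0.87, while the median of all tested piRNAs was -0.32 to 1.03. Relative to that median, rno_piR_000685 had a log2 value of -1.97 to -1.64 at 48h over the 7. The corresponding relative values were -0.22 to -0.09 at 24h, -1.37 to -1.002 at 168h and -0.85 to -0.69 for all libraries after hepatectomy. Relative to the median piRNA, 168h against 48h was 0.75 to 1.05 over the 7, while the unadjusted direction turned in 3 of them. A scaling shifts all piRNAs of a comparison by nearly the same amount, which taking off the median removes. The narrow ranges of the relative values follow from that and are no test of a direction.

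**Figure D3:**
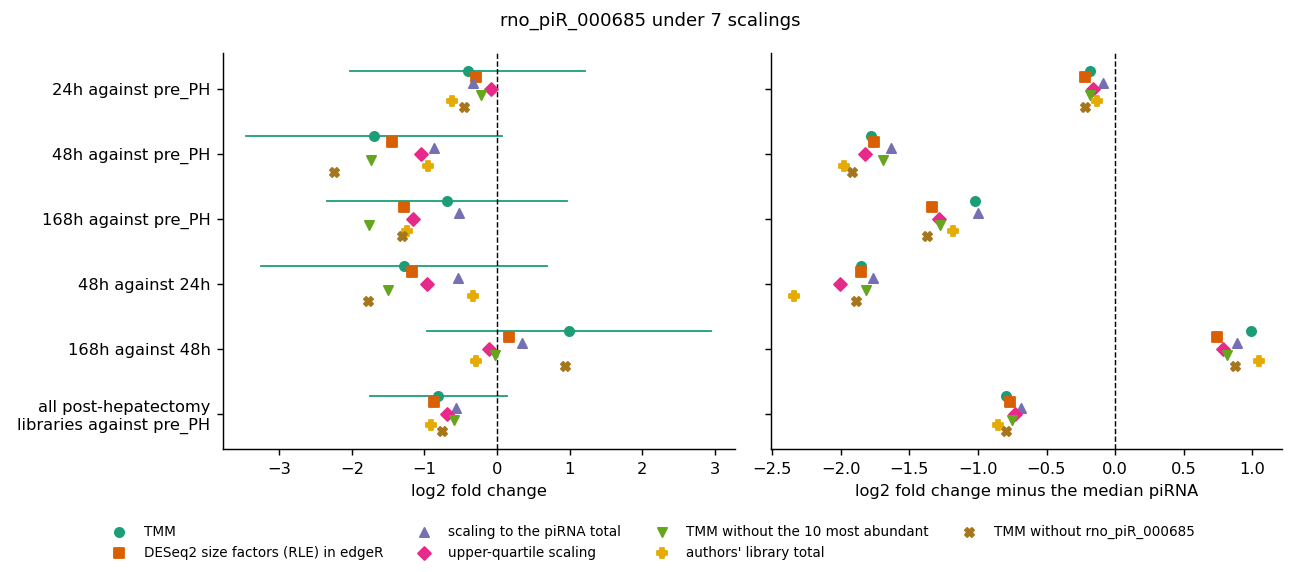
Log2 fold change of rno_piR_000685 in 6 comparisons (left) and the same minus the median of all piRNAs tested (right), under 7 scalings. Lines on the left are 95% intervals of the TMM fit. At 48h against pre_PH the points run from -2.24 to -0.87 on the left and from -1.97 to -1.64 on the right. The right side is narrow by construction, since the median shifts with the scaling.

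Among sham-operated livers, the share of rno_piR_000685 varied less than that of any other piRNA listed in all 12 libraries. The SD of its log2 share over the 6 pre_PH libraries was 0.18, against a median SD of 0.99 over the 61 piRNAs and 0.87 to 2.34 for the other 9 of the 10 most abundant. A share that is already large has little room to grow, which bounds this measure. On the scale of log2 RPM its SD in pre_PH was 0.66, against a median of 0.77, and it was the 23rd lowest of the 61. Over all 12 libraries the SD of its log2 RPM was 0.72 against a median of 1.10, the 12th lowest. Its highest and lowest libraries differed by 6.06 times in RPM and by 3.10 times in share.

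The distinct read sequences assigned to rno_piR_000685 reached the same number in most libraries. There were 91 in 9 of the 12 libraries, from 48h replicate 1 with 28115 reads to pre_PH replicate 3 with 161081 reads. The exceptions were pre_PH replicate 1 with 86, 168h replicate 1 with 89 and 168h replicate 2 with 88. Depth did not order them, since pre_PH replicate 1 had 1.78 times the reads of 48h replicate 1. With the number of distinct sequences nearly constant, the reads per distinct sequence (309 and 689 at 48h, against 536 to 1770 in pre_PH) followed the read count, and their log2 difference passed at no time (exact permutation adjusted p of 0.182 to 0.286).

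As a part of all distinct piRNA sequences, rno_piR_000685 was a smaller fraction at 48h. It made up 4.21% and 2.98% of them at 48h, against 5.29 to 7.21% in pre_PH, 6.77% and 6.48% at 24h, and 5.91% and 6.40% at 168h. Both 48h libraries lay below all pre_PH libraries (log2 difference -0.77, exact permutation p = 0.0357, adjusted p = 0.143). Those libraries also listed more piRNA names, 328 and 446 against 129 to 216 in pre_PH, and more distinct sequences in all, 2159 and 3057 against 1192 to 1719, while the number for rno_piR_000685 itself was 91 in both.

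**Figure D4:**
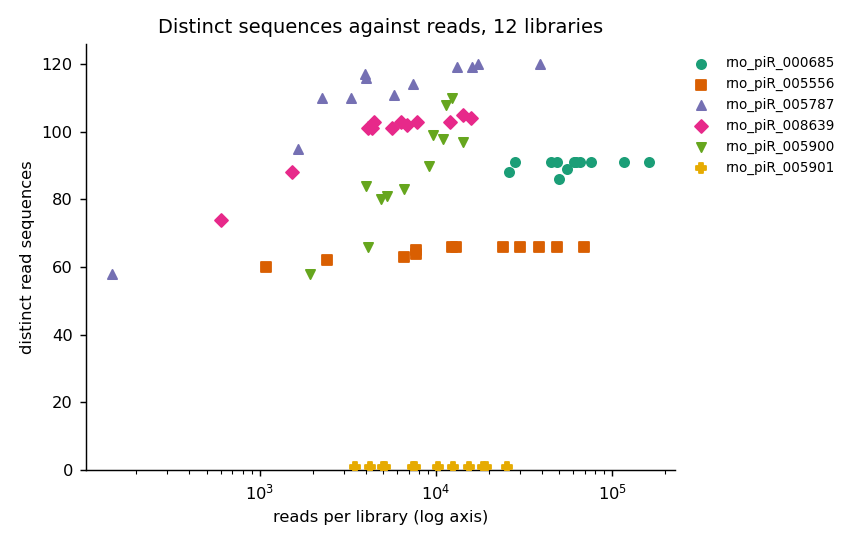
Distinct read sequences (vertical) against reads (horizontal, log axis) in each of the 12 libraries for rno_piR_000685 and 5 other abundant piRNAs. Points of rno_piR_000685 lie at 86 to 91 whatever its reads, and those of rno_piR_005556 level off at 66.

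The piRNAs most like rno_piR_000685 were sought by Pearson's r of log2 RPM over the 12 libraries, among the 60 others listed in all of them. The highest were rno_piR_025314 (r = 0.77), rno_piR_000119 (0.67), rno_piR_000030 (0.63), rno_piR_005556 (0.58) and rno_piR_008174 (0.55), while the median over the 60 was -0.02. In rno_piR_025314 the lowest library was 168h replicate 2 with 17.5 RPM and the highest pre_PH replicate 3 with 160 RPM, the same libraries that were lowest and highest for rno_piR_000685. The lowest were rno_piR_005567 (r = -0.68), rno_piR_019160 (-0.65) and rno_piR_020049 (-0.62). The last had only 1 to 15 reads in the pre_PH libraries, with the 1 read in pre_PH replicate 3, so its r rests on small counts. For rno_piR_005567 the highest library was 168h replicate 2 with 2221 RPM and the lowest pre_PH replicate 4 with 59.3 RPM. All of these values share the library totals as a denominator and describe the 12 libraries only. When log2 shares of piRNA reads were used in place of RPM, 1 of the 5 most alike stayed among the top 5, and with Spearman's rho 4 of them did. Of the 3 least alike, 1 stayed among the bottom 3 with shares and 1 with Spearman's rho.

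**Figure D5:**
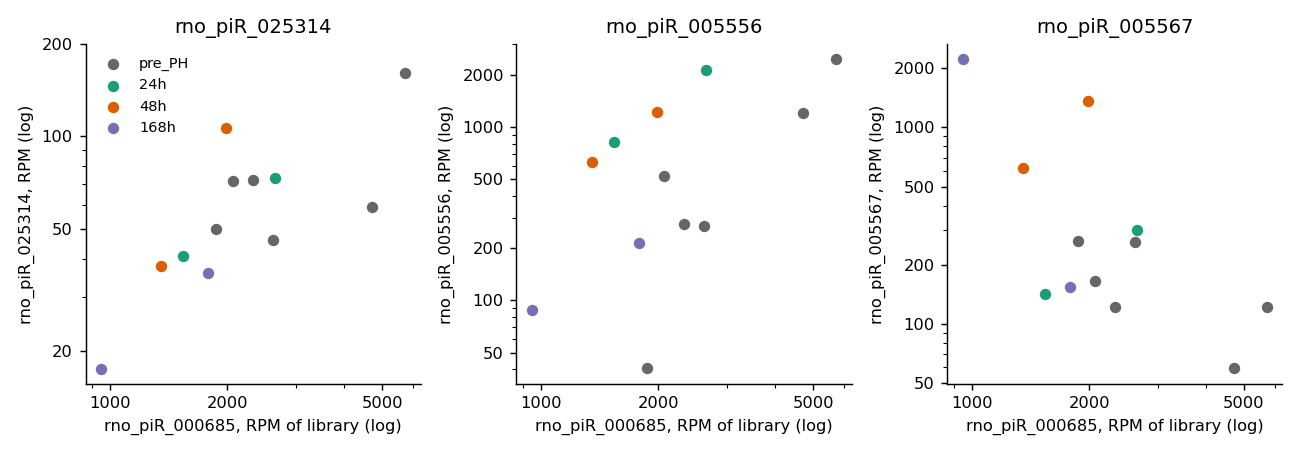
Level in each library of rno_piR_025314, rno_piR_005556 and rno_piR_005567 (vertical) against that of rno_piR_000685 (horizontal), in RPM on log axes, coloured by group. The first 2 have r = 0.77 and 0.58, and rno_piR_005567 has r = -0.68, with 168h replicate 2 at the upper left at 2221 RPM.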

How the data were processed

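TruSeq small RNA libraries of TRIzol-extracted liver RNA were purified on gels and run on an Illumina HiSeq, per the labels' protocols. The authors deposited, for each library, a read count per piRNA name and a count of unique reads, taken here as distinct read sequences. They also deposited the percent of all library reads and the percent of reads mapped to piRNAs, per the file headers. The submitters' processing notes name CASAVA 1.8, cutadapt, DESeq 1.14.0 and rn4, with no role. How reads were aligned, and how those matching several names were treated, is not given in the sources used here, so names with near-identical sequences can share or split reads.

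Library totals were obtained as read count over percent of all reads, which was constant within a library. The meaning of this total rests on the column name alone. A name not listed was taken as 0. No replicate pair agreed within sampling noise (chi-square, 0 of 18 pairs). The count test was edgeR 4.0.16 under R 4.3.3, with the robust quasi-likelihood F-test, TMM and filterByExpr, all 4 groups in 1 fit and Benjamini-Hochberg adjustment over all 80 piRNAs tested (52 for 6 against 6 libraries), called under 0.05. The standard error was the log2 fold change over the square root of F. DESeq2 1.42.0 and limma-voom (limma 3.58.1) were alternatives. The fit was run on simulated counts with less spread than these data and larger differences than those of rno_piR_000685. That run does not show its power here. Each of 6 measures per library was compared on the log2 scale by exact two-sided permutation of the difference in means, adjusted over its 4 comparisons. With 28 splits no p could go below 0.0357, so a single time could not pass after adjustment unless other comparisons were also low. Wilson intervals of a share cover counting error only, and can be too narrow, since PCR copies are not independent molecules. Intervals of a log2 fold change come from the edgeR fit and reflect the spread among libraries.

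The piRNAs named were the 10 with the highest mean share over libraries and, among those listed in all libraries, the 5 most and 3 least correlated with rno_piR_000685; rno_piR_001199 and rno_piR_000693 were added after their values were seen. The piRNA described, the measures and the lists were chosen with earlier results of these data known.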

Additional observations from a re-analysis of the deposited data

Results flagged for a closer look

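Values that stand apart within pre_PH were looked for in 9 measures of the 6 libraries, where chance flags about 1 in 20 groups. The number of distinct sequences of rno_piR_000685 was 86 in pre_PH replicate 1 and 91 in each of the other 5, so that this library stood alone. With those 5 tied, any other value would have been flagged, and the chance rate does not hold for this measure. The level of all other piRNAs was 6792 RPM in pre_PH replicate 3, far above the next pre_PH library at 3874 RPM. That library also had the highest level of rno_piR_000685, at 5736 RPM, which did not stand apart.

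The part of rno_piR_000685 among all distinct piRNA sequences lay above the pre_PH mean of 6.07% in both libraries at 24h (mean 6.62%) and below it in both at 48h (mean 3.60%). The difference between these times was not tested.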

How the results depend on the processing

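Over 469 re-computations of the 30 group comparisons, 442 kept their direction and side of the threshold, 6 came to pass it and 21 changed sign. The cause was not tested. Many could hardly move: an exact test of 1 time keeps its difference and p when a library of another time is left out. The 442 are thus no measure of stability. With a library after hepatectomy left out, the count test at single times covered 88 to 108 piRNAs in place of 80. No comparison passed in its main form. The log2 fold change at 48h against pre_PH passed with DESeq2 (-1.45). That at 24h turned positive with the replicate block (0.46), which used the libraries numbered 1 and 2 only, and equally with those libraries unblocked (0.47, chosen after seeing the data, as was TMM without rno_piR_000685). Whether the numbers pair libraries is not in the labels. Differences between replicates 1 and 2 correlated over piRNAs at -0.20 to 0.19 between the times after hepatectomy. With 1 such difference a time and pre_PH not included, this cannot settle whether a pairing exists. With the block rno_piR_000685 was called in no comparison, as in the main fit, so there was no call to change. The log2 fold change of 168h against 48h turned negative with upper-quartile scaling (-0.11), TMM without the 10 most abundant (-0.028) and the authors' library total (-0.29). The log2 ratio to other piRNAs at 24h was 0.44 with their median. With each library left out, the log2 fold change ran from -1.14 to 0.37 at 24h, from -2.98 to -1.22 at 48h and from -0.24 to 1.13 for 168h against 48h. The log2 share difference ran from -0.74 to -0.48 pooled and from -1.30 to 0.00071 at 168h, the pooled log2 RPM difference from -0.99 to -0.66, and the log2 ratio at 24h from -0.43 to 0.036. The part of distinct sequences at 168h ran from -0.027 to 0.087, and the level of all other piRNAs from -0.49 to 0.52 at 24h, from -0.71 to 0.24 at 168h and from -0.037 to 0.26 pooled. The number of piRNAs tested differed between settings, so calls are given with it, library leave-outs aside. At 24h calls ran from 1 of 80 to 8 of 78 (2 of 80 in the main fit). At 48h they ran from 16 of 55 to 50 of 89 (37 of 80), with 25 of 701 unfiltered. At 168h they ran from 0 of 80 to 8 of 61 (5 of 80). For 48h against 24h they ran from 3 of 701 to 42 of 89 (14 of 80). For 168h against 48h they ran from 17 of 701 to 39 of 89 (30 of 80). Pooled, they ran from 0 of 52 to 7 of 52 (6 of 52). Where a time was left with 1 library, that library was assumed to vary like the other groups, and for the exact tests no p could then go below 0.143. Restricting the fit to the groups compared could not be run for the pooled comparison, which uses all libraries. The 2 libraries a time limit the precision of every comparison.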

Other observations

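The number of distinct sequences at which rno_piR_000685 levelled off, 91, is the sum of the whole numbers from 1 to 13. Arithmetically, this is how many unbroken stretches an RNA gives when stretches of 13 consecutive lengths, up to the whole RNA, are counted. The highest numbers of distinct sequences of rno_piR_005556 (66), rno_piR_005787 (120), rno_piR_008639 (105), rno_piR_000030 (78) and rno_piR_005359 (36) are sums of the same kind, while those of rno_piR_005900 (110), rno_piR_005567 (46) and rno_piR_004288 (30) are not. Among the 32 piRNAs listed in all libraries that reached at least 20 distinct sequences, 7 had such a number as their maximum. Of the 101 whole numbers from 20 to the highest maximum, 10 are such sums. This was noticed after the values were seen, and what it stems from was not tested.

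Apart from rno_piR_000685, 4 of the piRNAs listed in all libraries had their highest number of distinct sequences in at least 3 libraries. The abundant rno_piR_005901 was counted from 1 distinct sequence in every library, with 134340 reads in all. For rno_piR_001199 the number was 2 in every library, for rno_piR_005556 it was 66 in 7 libraries, and for rno_piR_000693 it was 7 in 3 libraries.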
